A study of Mus musculus with 2 samples.

Results

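The nuclear genes of respiratory complexes II to V were compared between slow and fast skeletal muscle fibres of the mouse. Members were chosen by symbol, namely the genes whose symbols begin with Sdh, Uqcr, Cox5, Cox6c, Cox7b, Cox7c, Cyc1, Cycs or Atp5 and the Cox genes numbered from Cox10 to Cox19. In all, 48 of 23458 genes with a matched probe were members, and each was read by its brightest probe. They comprise 36 genes of subunits and of cytochrome c, and 12 genes of assembly factors. Of these, 47 were well above background on both arrays. Cox7b2, a testis isoform of a complex IV subunit, was not well above background on either. The rule also takes in Cox5b and 17 pseudogenes, for which no probe was matched, so these 18 were left out.

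The chain passes electrons from metabolites to oxygen in the inner mitochondrial membrane and pumps protons across it. Complex II, succinate dehydrogenase, also serves the citric acid cycle and feeds electrons to ubiquinone, complex III passes them to cytochrome c, and complex IV, cytochrome c oxidase, reduces oxygen. ATP synthase, complex V, uses the proton gradient built by the pumping complexes to make ATP, and slow fibres, which work for long periods, depend on this oxidative supply more than the fastest fibres do.

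Fibres came from 8 male mice of 6 to 8 weeks, all heterozygous (G/+) for the GFP-Myh7 allele, which marks fibres that make slow myosin. The fast pool held 4447 fibres without GFP from the extensor digitorum longus, which is rich in fast fibres. The slow pool held 1659 GFP-positive fibres from the soleus, a postural calf muscle. For the slow sample, source label and protocol give the soleus, taken here as its origin, although its tissue entry reads extensor digitorum longus. Muscle and fibre type therefore cannot be told apart, and the fibres of all mice were pooled. Each pool was labelled with Cy3 from 0.1 µg of total RNA and hybridised to 1 array, so a level is relative to the RNA of its pool, and fewer fibres that make a message and less of it per fibre cannot be told apart. There were no replicates, hence no test of any gene between the pools.

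Of 59305 spots, 52.3% (fast) and 50.9% (slow) were well above background. Levels are log2 processed intensities relative to their array's 75th percentile, and a difference is always the slow level less the fast level. The labels were checked with the myosin heavy chains: Myh7, the slow chain, had fast and slow levels of 2.61 and 10.69, and Myh4, the chain of the fastest fibres, of 9.81 and -1.73. The fast chains Myh1 and Myh2 were 114-fold and 3.58-fold higher in the fast pool. All 7 slow fibre markers were at least 2-fold higher in the slow pool and all 10 fast fibre markers in the fast pool. Of markers of other cells, 9 of 10 endothelial, 7 of 9 fibroblast and 4 of 6 erythrocyte genes were at least 2-fold higher in the fast pool. Their summed linear levels were 27.0 against 6.76, 159 against 39.4 and 94.7 against 35.4 in the fast and slow pools. Also at least 2-fold higher in the fast pool were, with fast and slow sums in brackets, 3 of 8 smooth muscle and pericyte markers (793 and 721, with 1 higher in the slow pool), 2 of 8 immune markers (30.2 and 20.7), 4 of 7 Schwann cell markers (9.40 and 19.8, with 2 higher in the slow pool), 1 of 5 adipocyte markers (18.7 and 8.34) and 1 of 4 satellite cell markers (0.74 and 0.31). Single bright genes dominate some of these sums. Those of smooth muscle were mostly Acta2, at log2 levels of 9.61 (fast) and 9.48 (slow), while 7 of the 8 markers were lower in the slow pool. The immune sums were mostly Cd68 (3.71 and 1.57) and Itgam (3.82 and 4.05). The slow Schwann sum was mostly Pmp22 (2.19 and 4.16), while 5 of the 7 markers were lower in the slow pool. On neither array were Ptprc, Adgre1, Lyz2, C1qa, Adipoq, Plin1 and Myf5 well above background. The part of these cells in the differences below was not tested.

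The promoters of these genes were searched for sequence motifs that the choice by symbol did not use. RefSeq promoters of build GRCm38.p6, from 250 bases before to 50 after the annotated start, were at hand for 38 of the 48 genes. The motif of the respiratory factor NRF1, which reads GCGCA, any base, then GCGC, stood on either strand in 28.9% of them (11 of 38), against 5.19% of 27025 genes of any kind. CCGGAAG, bound by ETS factors such as GABP, stood in 44.7% against 9.93%. TCAAGGTCA, the motif of the ERR receptors, was in 2 promoters (5.26% against 0.466%), those of Atp5g3 and Sdhd. AAGATGGC, the motif of YY1, was in 10.5% against 3.19%, and GGGCGG, of SP1, in 19 of 38 promoters against 38.2% of all genes. The 27025 genes were not limited to those measured on both arrays, and no share among measured genes or other mitochondrial genes was taken. A match describes the letters only. A stretch that matched more than 1 motif was counted under each.

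The 150 bases before the start are printed for 6 genes, in lower case with matches to the first 4 motifs in capitals. Atp5g2 and Atp5k had the highest and the lowest difference among the ATP synthase genes, and both hold an NRF1 match before the start.
Atp5g2, chr15:102671048-102671197, minus strand: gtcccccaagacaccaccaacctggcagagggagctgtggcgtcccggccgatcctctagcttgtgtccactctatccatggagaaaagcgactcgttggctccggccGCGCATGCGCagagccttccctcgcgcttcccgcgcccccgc
Atp5k, chr5:108434400-108434549, minus strand: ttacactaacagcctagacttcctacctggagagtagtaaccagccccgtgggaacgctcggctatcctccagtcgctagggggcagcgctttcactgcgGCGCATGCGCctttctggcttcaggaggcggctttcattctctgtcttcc
Sdha and Sdhd are complex II subunits at nearly equal levels in both pools, with 3 NRF1 matches in Sdha and an NRF1 and an ETS match in Sdhd.
Sdha, chr13:74350241-74350390, minus strand: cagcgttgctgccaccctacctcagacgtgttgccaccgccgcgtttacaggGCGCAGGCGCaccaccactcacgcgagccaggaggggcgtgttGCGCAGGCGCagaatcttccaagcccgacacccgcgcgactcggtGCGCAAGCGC
Sdhd, chr9:50603850-50603999, minus strand: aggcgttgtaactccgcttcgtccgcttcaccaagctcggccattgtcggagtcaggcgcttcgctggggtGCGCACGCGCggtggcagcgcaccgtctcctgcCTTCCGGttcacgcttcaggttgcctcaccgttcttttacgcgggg
Sdhaf4 and Cox19 are the assembly factor genes past 2-fold, and their stretches hold no match to the marked motifs.
Sdhaf4, chr1:24005641-24005790, minus strand: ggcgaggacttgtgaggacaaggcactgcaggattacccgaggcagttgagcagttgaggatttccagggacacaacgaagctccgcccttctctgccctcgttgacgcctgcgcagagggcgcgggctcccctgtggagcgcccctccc
Cox19, chr5:139345167-139345316, minus strand: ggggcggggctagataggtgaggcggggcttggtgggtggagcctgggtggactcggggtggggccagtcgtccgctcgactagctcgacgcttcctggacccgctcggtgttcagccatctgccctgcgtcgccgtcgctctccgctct
Sdhaf4 has an NRF1 match after the start, from base 8 to base 17. The median difference was 0.11 over the 11 genes with an NRF1 match and 0.12 over the 26 others with a promoter that were measured on both arrays.

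Relative to the 75th percentile of each array, the messages of the complexes were at nearly equal levels in slow and fast fibres. The median difference over 47 genes was 0.11 (1.08-fold), against 0.05 for all 12846 genes well above background on both arrays, and it was -0.08 under loess, -0.004 by the authors' values and 0.54 with spike-in scaling, where that of all genes was 0.48. Of the 47, 45 were within 2-fold, and Sdhaf4 and Cox19 exceeded it towards slow fibres, where 9.47% of all genes did so. Towards fast fibres 0 of the 47 exceeded 2-fold, against 12.7% of all genes. Within 1.5-fold lay 44 of the 47 genes, against 59.0% of all genes. Past 1.5-fold were 3 members towards slow fibres (background 20.1%) and 0 towards fast fibres (20.9%), and past 3-fold 0 in either direction (4.37% and 6.36%). The SD over the genes was 0.31, against 1.09 over all genes. This contrast was smaller with normexp, another background correction, run with an offset of 50 on median spot and background intensities. The SD was then 0.335 (quantile) or 0.304 (75th percentile), against 0.836 over all genes. The parts of the correction and of the offset in this change were not tested. Within 2-fold were then 45 of the 47 members and 87.1% of all genes, against 77.8% of all genes under the main scaling. All genes include many dimmer ones, and brightness was not matched. The array software gives each intensity an error, which came to 0.20 for the difference of nearly all members, and 4 of the 47 differed by more than 1.96 such errors, hereafter the software limits, against 53.3% of all genes. These were Cox19, Sdhaf4 and Sdhc, higher in slow fibres (3 of 47, against 27.4%), and Cox11, higher in fast fibres (1 of 47, against 25.9%). The software error covers the spot and its background, not animals, dissection or labelling.

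**Figure D1:**
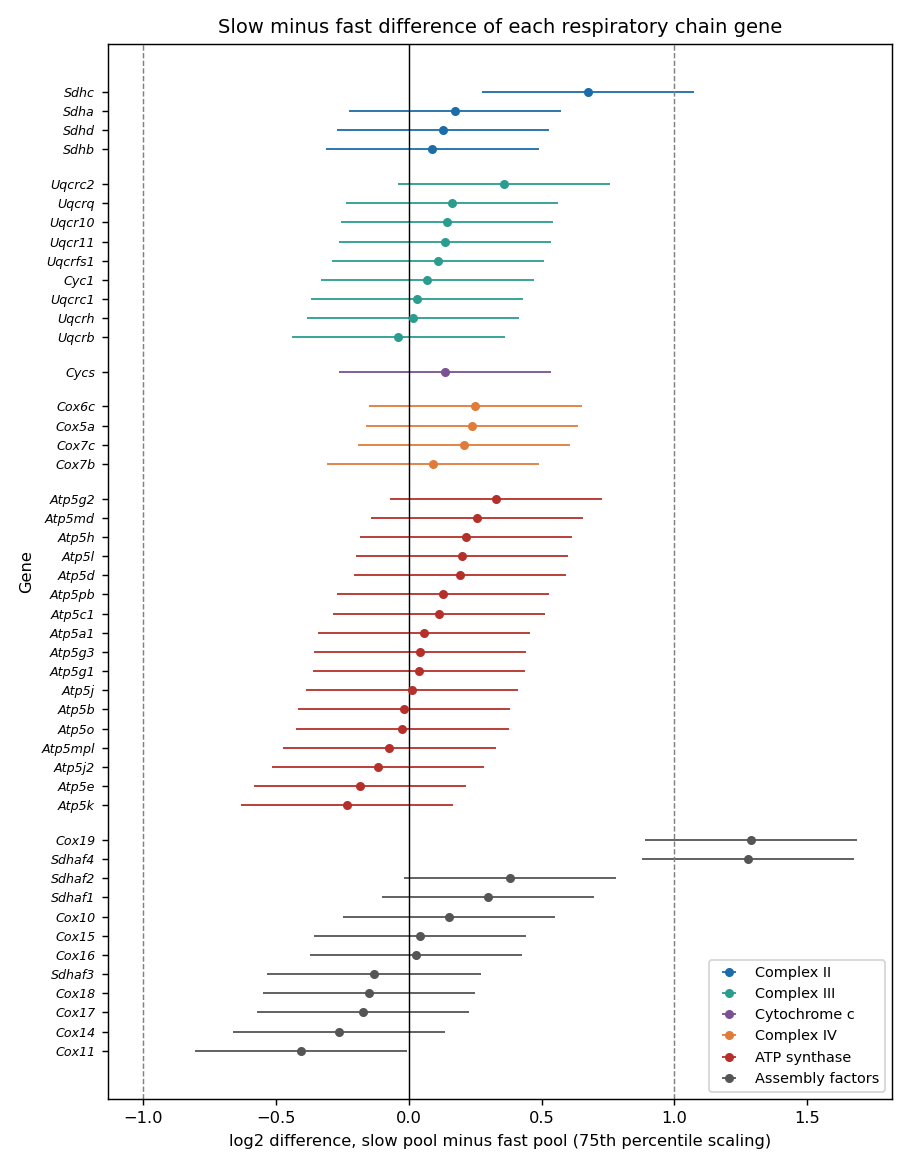
Log2 difference, slow pool minus fast pool, of the 47 genes measured on both arrays (x axis), by gene (y axis), coloured by complex. Points are single values from 1 array per pool, bars are the software limits, and dashed lines mark 2-fold; Cox19 and Sdhaf4 lie beyond the line at 1 and no gene lies beyond the line at -1.

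**Figure D2:**
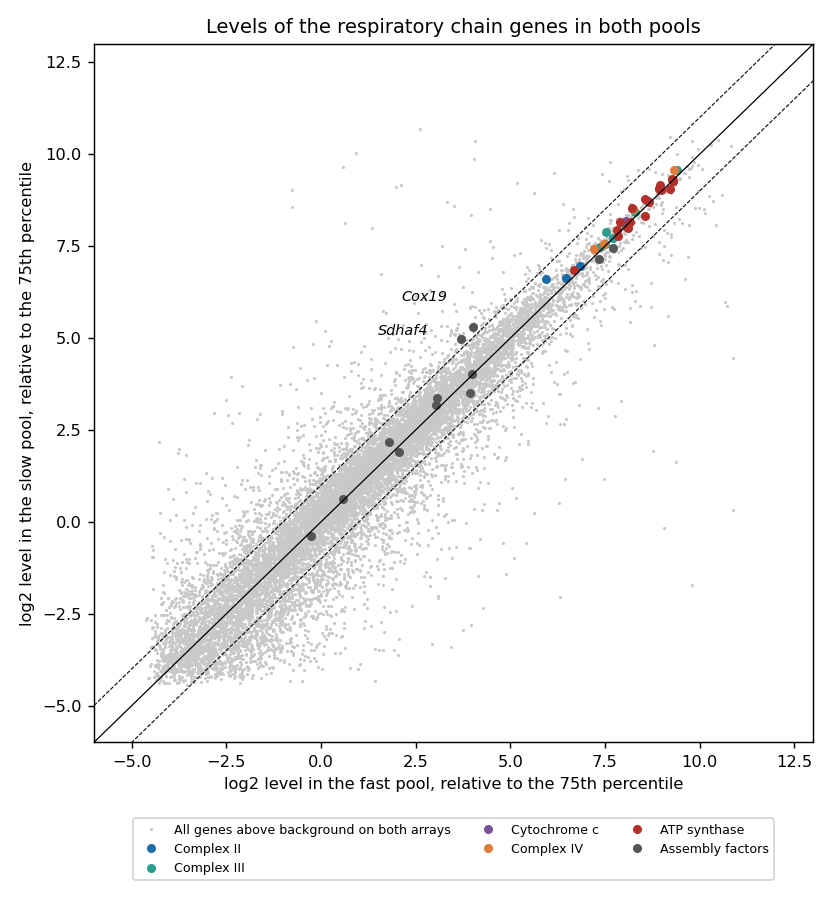
Log2 level in the slow pool (y axis) against the fast pool (x axis), relative to the 75th percentile of each array, for 12846 genes (grey) and 47 respiratory chain genes (coloured). The solid line is equality and dashed lines are 2-fold; all coloured points but Cox19 and Sdhaf4 lie between the dashed lines.

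Complex II held the subunit gene with the largest difference. Sdhc, an anchor of the enzyme in the membrane, was at 5.93 (fast) and 6.61 (slow), a difference of 0.68 or 1.60-fold, and passed 2-fold only under spike-in scaling (1.10). Its partner anchor Sdhd was at 6.83 and 6.96, a difference of 0.13. Sdha, the flavoprotein that oxidises succinate, was at 6.46 and 6.63, a difference of 0.17, and its second probe gave 0.07. Sdhb, the iron-sulfur subunit, was at 8.65 and 8.73, a difference of 0.09, with 0.16 by its second probe. The anchors thus read 0.68 and 0.13, and the catalytic pair 0.17 and 0.09, and all but Sdhc were within the software limits. The median of the 4 was 0.15, and below 0 under loess (-0.02). Sdhc had a single probe.

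All 9 complex III genes lay within 1.5-fold, with a median of 0.11 and an SD of 0.12 over genes, and the median turned below 0 with loess (-0.08) and, at -0.004, with the authors' values. Uqcrc2, a core protein, had the highest value, at fast and slow levels of 7.52 and 7.88 (0.36). Uqcrc1, the other core protein, differed by 0.03. Among the redox subunits, Uqcrfs1, the Rieske iron-sulfur protein, differed by 0.11 and Cyc1, cytochrome c1, by 0.07. Of the small subunits, Uqcrq was at 9.41 and 9.57 (0.16), Uqcr10 differed by 0.14 and Uqcr11 by 0.14. Uqcrh, the hinge protein next to cytochrome c1, was at 9.27 and 9.29 (0.02). Uqcrb, which helps to hold the ubiquinone site, was at 8.06 and 8.02 (-0.04), and -0.34 by its second probe. No complex III gene lay outside the software limits. Cycs, the mobile carrier cytochrome c, was at 8.04 (fast) and 8.18 (slow), a difference of 0.14, and its second probe gave -0.05.

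The 4 complex IV subunits measured among the members had the highest median of the complexes under the main scaling, 0.22, with values from 0.09 to 0.25. This median was 0.02 under loess and 0.65 with spike-in scaling, and under quantile normalization (0.21) it was below that of ATP synthase (0.28). Cox5a, a matrix-side subunit, was at 9.33 and 9.57 in the fast and slow pools (0.24). Cox6c, a membrane subunit, was at 8.25 and 8.50 (0.25). Cox7c was at 7.22 and 7.43 (0.21, and 0.06 by its second probe), and Cox7b at 7.46 and 7.55 (0.09). Each of the 4 was within the software limits. The medians of complexes II, III, IV and V were 0.15, 0.11, 0.22 and 0.04, which differ by less than the software error, and no test of their difference was made. The 11 measured tissue isoforms and related subunits of complex IV, described apart below, had a median of 0.15.

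The 17 ATP synthase genes spanned -0.23 to 0.33 around a median of 0.04, with 11 above 0 and 6 below. The ATP synthase median moved by more than the software error under 4 alternatives: it was 0.47 with spike-in scaling, 0.28 under quantile normalization, 0.32 under normexp with quantile normalization and -0.17 under loess. By the authors' values it was -0.07, a smaller move. In the catalytic F1 head, Atp5a1 (alpha) differed by 0.06, Atp5b (beta) by -0.02, Atp5c1 (gamma) by 0.11 and Atp5d (delta) by 0.19. Atp5e (epsilon) was at 9.22 (fast) and 9.04 (slow), which gives -0.18. The 3 genes of the c ring, the rotor in the membrane, encode the same mature protein. Of these, Atp5g2 was at 8.20 and 8.53 (0.33), whereas Atp5g1 and Atp5g3 each differed by 0.04, and a second Atp5g1 probe gave 0.24. The Atp5g2 probe was printed 10 times, and its spots gave differences from 0.19 to 0.40 with an SD of 0.06, against a median SD of 0.05 over 291 repeated probes. All 3 c ring genes lay within the software limits, where the error of Atp5g2 is that of a single spot, not reduced for its 10 spots.

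In the stalk that holds the head, Atp5h (subunit d) differed by 0.21, with 0.30 and 0.37 by its other probes, Atp5pb (subunit b) by 0.13, Atp5j (factor 6) by 0.01 and Atp5o (OSCP) by -0.02. Among the small subunits of the membrane part, Atp5md was at 7.90 and 8.16 (0.26) and Atp5l differed by 0.20. Atp5mpl and Atp5j2 differed by -0.07 and -0.12, and Atp5k was at 8.56 and 8.33 (-0.23). The parts of the enzyme had medians of 0.06 for the head, 0.04 for the c ring, 0.07 for the stalk and -0.07 for the membrane part. All 17 ATP synthase genes lay within the software limits.

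The 12 assembly factors, which are needed to build complexes II and IV but are not parts of them, had a median of 0.04 and a wider SD over genes, 0.56 against 0.16 for subunits and cytochrome c, and the median fell under 0 by the authors' values (-0.08), loess (-0.06) and the percentile over bright probes (-0.005). Sdhaf4, which helps to join the flavinated Sdha protein to Sdhb, was at intensities of 2335 (fast) and 6057 (slow). Its log2 levels were 3.71 and 4.98, a difference of 1.28 or 2.42-fold in favour of slow fibres. Cox19, a small protein of the intermembrane space linked to copper supply of complex IV, was at intensities of 2901 and 7581, or log2 levels of 4.02 and 5.31. The difference of 1.29 made Cox19 2.44-fold higher in slow fibres. Both stayed past 2-fold under all 9 scalings, from 1.15 to 1.70 for Sdhaf4 and from 1.15 to 1.71 for Cox19. Each rests on 1 probe.

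The other complex II factors had smaller differences. Sdhaf1, which serves the iron-sulfur subunit, was at 3.07 and 3.36 (0.30). Sdhaf2, which attaches the flavin to Sdha, was at 1.80 and 2.18 (0.38, and 0.52 by its second probe), and Sdhaf3 differed by -0.13. Among the other copper proteins, Cox11, which delivers copper to the catalytic core, was at 3.92 and 3.52 (-0.41, but 0.02 under spike-in scaling). Cox17, the copper chaperone, differed by -0.17, but by 0.255 under spike-in scaling. The copper chaperones Sco1 and Sco2, which are no members and were chosen after their values were seen, differed by 0.54 and 0.57. Sco1 was dim, at intensities of 56.8 (fast) and 88.2 (slow), and fell to 0.225 at its lowest over the scalings, against 0.457 for Sco2. Cox14, needed for early assembly, was at 7.71 and 7.45 (-0.26, and 0.16 under spike-in scaling). Of the haem synthesis genes, Cox10 was at 3.02 and 3.17 (0.15) and Cox15 differed by 0.04. Cox16 and Cox18, which act on a copper-binding subunit encoded in the mitochondrion, differed by 0.03 and -0.15. Of the 12 factors, 9 were within the software limits, all but Sdhaf4, Cox19 and Cox11.

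For the 19 genes with over 1 probe well above background on both arrays, the gap between the lowest and the highest difference had a median of 0.11 and ran from 0.02 for Cox17 to 0.30 for Uqcrb. Atp5b, Cox18 and Cycs had probes on both sides of 0. Of 68 member probes measured on both arrays, only those of Sdhaf4 and Cox19 passed 2-fold.

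**Figure D3:**
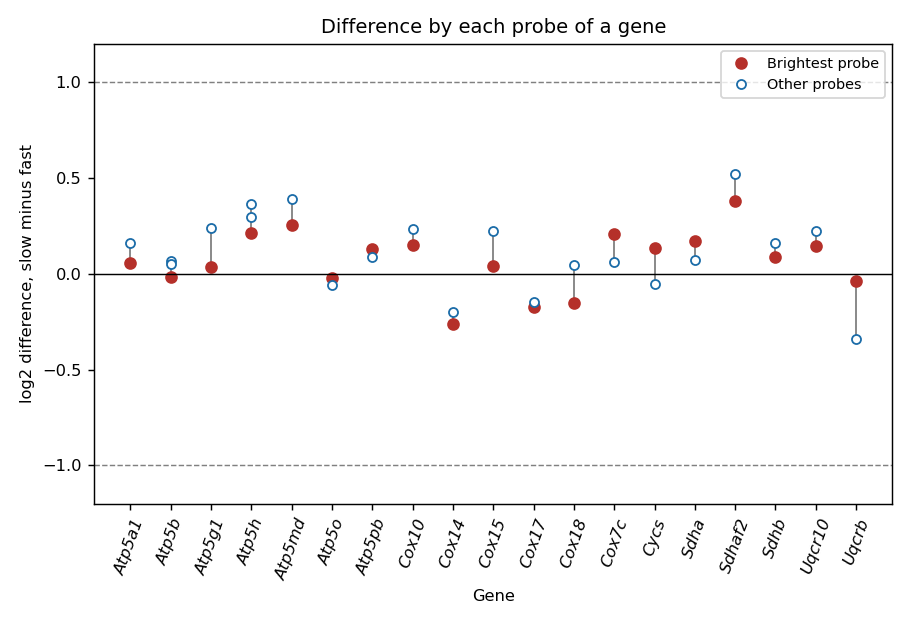
Log2 difference, slow pool minus fast pool (y axis), by each probe of the 19 genes with over 1 measured probe (x axis). Filled points are the brightest probe, open points the others, grey lines join the probes of a gene and dashed lines mark 2-fold; the widest gap, 0.30, is that of Uqcrb, and no probe reaches a dashed line.

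Most of these genes were read at high intensity, with 34 of 47 above 20000 on the fast array. The highest member intensity was 121700 on the fast and 145800 on the slow array, and no spot was saturated. The 8 spike-in controls above background on both arrays differed by a median of -0.43 between the pools. The 5 with fast intensities from 253.6 to 35630 lay between -0.455 and -0.425, whereas the brightest pair read -0.37 at 58320 and -0.24 at 232700 and the dimmest -0.325 at 30.9. The brightest controls thus read nearer to 0, and the part of this in the values of the members was not tested.

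Scaling set the sign of most of these small differences. Of the 47 genes, 35 were above 0 under the main scaling, where 6832 of all 12846 genes were. The count of members was 15 under loess, 23 by the authors' values and 47 with spike-in scaling, which added 0.43 to every gene, members or not. The median of all genes was -0.035, -0.062 and 0.478 in these 3 settings. Above 0 under all 9 scalings were 15 members, without a count over all genes to set beside them. A member below 0 under all 9 was not possible, since spike-in scaling put all 47 above 0.

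**Figure D4:**
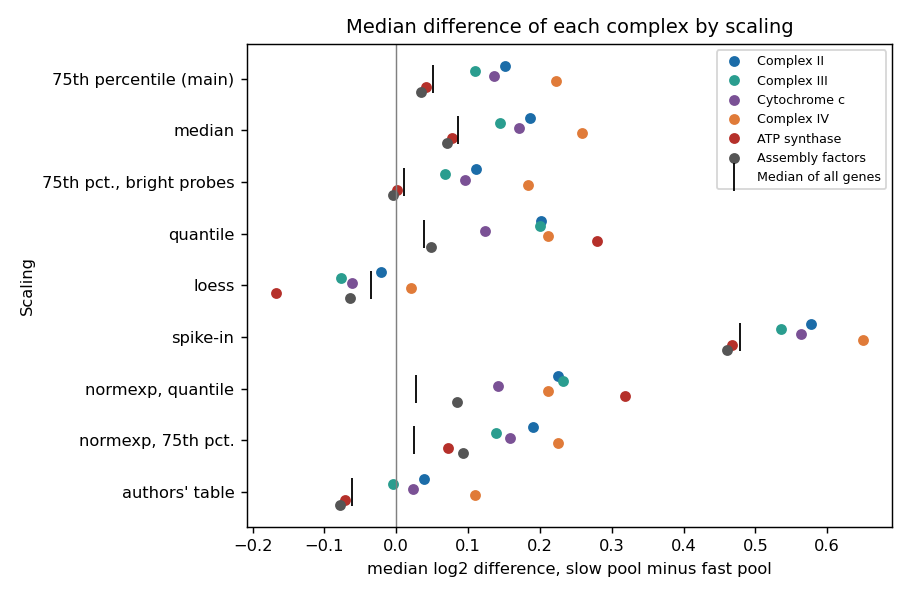
Median log2 difference, slow pool minus fast pool (x axis), of each complex under 9 scalings (y axis), with Cycs as a single gene; black ticks mark the median of all genes. The complexes move with the tick under spike-in scaling, and ATP synthase runs from -0.17 under loess to 0.47 under spike-in scaling.

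Neighbouring gene groups of the mitochondrion were set beside the members, without a test since there is 1 array per pool. All 36 complex I subunits were within 2-fold, with a median of -0.001 and the highest value, 0.84, for Ndufb3. Of 11 tissue isoforms and related subunits of complex IV above background, the ubiquitous isoforms Cox8a and Cox6a1 exceeded 2-fold towards slow fibres, at 2.54-fold and 2.28-fold, 0 exceeded it towards fast fibres, and the lowest value was that of Cox4i2 (-0.51). The Cox6a1 value was 0.985 on the log2 scale, just under 2-fold, at its lowest over the scalings. Of 25 further assembly factors measured on both arrays, Coa5 was 2.43-fold higher in slow fibres and the lowest was Uqcc2, a complex III factor (-0.68). All 78 mitochondrial ribosomal protein genes were within 2-fold, with a median of 0.20, from -0.33 for Mrps21 (0.10 under spike-in scaling) to 0.91 for Mrps18a.

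**Figure D5:**
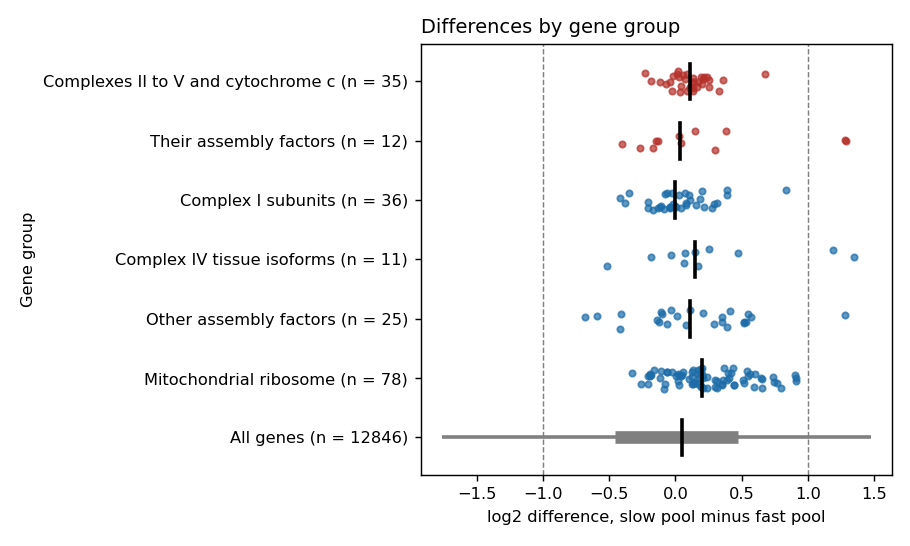
Log2 difference, slow pool minus fast pool (x axis), of single genes measured on both arrays by group (y axis), with members in red, other mitochondrial groups in blue and medians as black ticks; for all genes the thick grey bar spans the 25th to 75th and the thin bar the 5th to 95th percentile. Subunits of complexes II to V lie within the dashed 2-fold lines, and their median of 0.11 lies between -0.001 for complex I and 0.20 for the mitochondrial ribosome.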

How the data were processed

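RNA of 2 fibre pools was measured on 1-colour Agilent arrays of the same slide and scan, per the file headers. Per the file headers, the deposited intensities come from Agilent Feature Extraction 12.0.3.1, which subtracted background and removed spatial trends but set no scale between arrays. After removal of 159 spots flagged as outliers, repeated spots were averaged, and log2 intensities were taken relative to the 75th percentile of each array. Probe accessions were matched to a RefSeq table of GRCm38.p6, used for names since the array refers to mm9. Of 56596 probes, 33763 (59.7%) matched 1 gene and 0 matched several. The brightest probe by mean intensity stands for a gene, and a gene counts as measured where that probe is well above background on both arrays. The size rule was 2-fold. Tables and plots used Python 3.11.15, and alternatives used limma 3.58.1 in R 4.3.3: the median, the percentile over bright probes, quantile, loess (span 0.3), spike-in scaling, normexp (offset 50, on median spot and background intensities) and the authors' table. That table holds deposited intensities equal to the processed signal times 2.83 (fast) and 2.45 (slow), with column medians of 30.1 and 27.1, no log and no centring, and what it scales to is unknown. The calculation was tested on simulated data.

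Members and lists were chosen with earlier results of these data known. Every member may be named; levels are given for the 2 highest and 2 lowest of each complex and those past 2-fold. Of comparison lists, the highest, the lowest and those past 2-fold are named, except for an item that is not reported here. Precision is limited by having 1 array per pool. The pseudogene copies of Atp5c1, Atp5k, Atp5l, Atp5pb, Cox5b, Cox6c, Cox7c, Cycs and Uqcrh had no matched probes, and whether their transcripts reach the members' probes was not tested.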

Additional observations from a re-analysis of the deposited data

How the results depend on the processing

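Spike-in scaling raised the medians to 0.54 for all members, 0.58 for complex II, 0.54 for complex III, 0.65 for complex IV, 0.47 for ATP synthase and 0.46 for the assembly factors, and the Cycs difference to 0.56. The comparison groups moved with them, to 0.43 for complex I, 0.58 for the complex IV isoforms, 0.53 for the other assembly factors and 0.62 for the mitochondrial ribosome, because this setting adds the same amount to every gene. The ATP synthase median was 0.28 under quantile normalization, 0.32 under normexp with quantile normalization and -0.17 under loess, and the cause was not tested. The complex IV isoform median was -0.06 under loess. Past 2-fold towards slow fibres, the count of members was 0 with a 3-fold rule and 0 with the second brightest probe, a setting that leaves 19 genes and neither Sdhaf4 nor Cox19, and 2 or 3 under each other alternative run. The count in fast fibres was 0 under each alternative run. The other medians moved by less than the software error. No paired analysis was possible because each pool has 1 array, and for the same reason no array could be left out. By the software error, differences below about 0.20 have no order. Repeated spots of a probe varied less, with a median SD of 0.05 over 291 probes, but they share an array and its labelling. Having 1 array per pool gives no measure of variation between animals.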

Other observations

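Among the mitochondrial genes measured on both arrays and described above, those past 2-fold were Cox8a, Cox6a1, Coa5, Cox19 and Sdhaf4. They were chosen here for passing it and were 2.28-fold to 2.54-fold higher in slow fibres. They comprise 2 of 47 members, 2 of 11 complex IV isoforms and 1 of 25 further assembly factors. Of complex I, 0 of 36 genes passed, and of the mitochondrial ribosome 0 of 78, against 9.47% of all genes towards slow fibres. All 5 have a single probe. Coa5, a factor of complex IV assembly, was at log2 levels of 1.48 (fast) and 2.76 (slow), and its difference of 1.28 kept to 1.12 or more under the 9 scalings. Cox8a was at 5.39 and 6.74, and Cox6a1 at 5.45 and 6.64.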
